A study of Mus musculus with 34 samples.

Results

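The nuclear lamina genes examined here are 9 mouse genes: Lmna, Lmnb1, Lmnb2, Lbr, Tmpo, Lemd3, Sun1, Sun2 and Banf1. They were chosen by name and function out of 21938 protein-coding genes, with earlier results of these data known. Each was measured as the mean H3K4me3 signal within 1000 bp on each side of the annotated 5′ end of the gene (GENCODE M21, mm10). H3K4me3, trimethylation of lysine 4 of histone H3, marks the start sites of active and poised genes. It was profiled by CUT&RUN, in which a protein A-MNase fusion cuts the DNA next to an antibody bound in unfixed nuclei.

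The study asked which genomic regions change when heterochromatin is disrupted early in carcinogenesis, while the tissue still looks normal. The comparison is of 2 wild-type and 2 ApcMin/+ libraries, called WT and APC below, from C57BL/6J mice that the labels put at 5 weeks and the methods at a slightly older age. Cells had been scraped from the villi of small intestine without visible lesions, and the antibody against H3K4me3 was used in all 4 libraries. ApcMin/+ mice carry a germline truncating mutation in 1 copy of Apc, in every cell and not in the epithelium alone, and develop intestinal adenomas. Each group had 2 mice, so an exact permutation test over libraries cannot give a p below 0.333. In such bulk samples, a mark in fewer cells and less mark per cell cannot be told apart.

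The lamina is a mesh of intermediate filament proteins under the inner nuclear membrane that tethers heterochromatin. A-type lamins come from Lmna and B-type lamins from Lmnb1 and Lmnb2. Lbr and the LEM-domain proteins hold chromatin at this mesh, Banf1 links LEM-domain proteins to DNA, and Sun1 and Sun2 connect the lamina to the cytoskeleton. A-type lamins are known to be more abundant in differentiated cells, while B-type lamins are present in nearly all cells.

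The 4 libraries held 1430000 and 4790000 tags (WT replicates 1 and 2) and 3700000 and 5470000 tags (APC replicates 1 and 2). APC replicate 1 stood apart: 43.2% of its signal lay in enriched regions, against 11.9% to 22.5% in the other libraries, and its median tested promoter had a signal of 13.2, against 3.06 to 4.53. Regions and tested promoters were set on the mean of the 4 libraries, which favours those high in APC replicate 1. Over all promoters, its mean signal was 6.85, against 1.76 to 2.59. Of 12 enterocyte markers, the summed promoter signal was 71.8 and 41.9 in WT and 207.0 and 54.9 in APC, and their mean percentiles among all promoters ran from 50.6 at Sis to 96.4 at Vil1. The summed signal of 8 mesenchymal markers was 3.84 and 4.35 in WT and 6.61 and 6.87 in APC, so both APC libraries were above both WT libraries, and that of 8 immune markers was 6.91 and 5.1 in WT and 11.5 and 6.05 in APC. In WT replicate 1, the shallowest library, Col1a1, Col3a1, Pdgfra, Ptprc and the crypt marker Olfm4 were listed at 0, while Cd3e (2.09), Acta2 (1.39), Cd79a (1.39) and Itgax (1.39) were above Lmna and Sun2. The summed signal of 10 crypt and cycling markers was 30.9 and 23.0 in WT and 91.8 and 36.1 in APC. That of 6 secretory markers was 6.4 and 4.29 in WT and 9.36 and 7.44 in APC. In the crypt and secretory lists, as in the mesenchymal list, both APC libraries were thus above both WT libraries, while the enterocyte and immune lists overlapped. The part of cell composition in the results below was not tested.

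Upstream sequences of 5 members are shown first, because the start site decides what is measured at Lmna, Lbr and Tmpo, and because Lmna differs from the others in CpG content. Each runs 5′ to 3′ on the strand of the gene, upstream of the RefSeq start of that gene with the highest mean signal (GRCm38.p6). Capitals mark 4 motifs wherever their letters occur on either strand. The GC box, which binds Sp1-type factors, was searched as GGGCGG. The box bound by NF-Y was searched as the letters in its name, CCAAT. The E2F site was searched as TTGGCGC, and for the CHR element, a second cell cycle motif, the letters were TTTGAA. The Lmna stretch, chr3:88503387-88503602, ends 35 bases before its start, where an exon of another transcript begins. The others, each of 250 bases, are chr1:181842402-181842651 (Lbr), chr10:91171620-91171869 (Tmpo), chr5:139200387-139200636 (Sun1) and chr10:80918246-80918495 (Lmnb2).
Lmna: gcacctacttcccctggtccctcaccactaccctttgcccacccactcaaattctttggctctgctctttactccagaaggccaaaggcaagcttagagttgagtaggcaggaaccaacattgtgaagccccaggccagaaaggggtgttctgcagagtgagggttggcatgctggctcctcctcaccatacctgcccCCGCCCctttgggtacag
Lbr: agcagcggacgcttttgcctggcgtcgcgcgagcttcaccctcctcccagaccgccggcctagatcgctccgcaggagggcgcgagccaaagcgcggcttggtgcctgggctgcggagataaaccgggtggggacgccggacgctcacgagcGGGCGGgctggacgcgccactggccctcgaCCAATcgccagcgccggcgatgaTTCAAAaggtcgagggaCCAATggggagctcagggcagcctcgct
Tmpo: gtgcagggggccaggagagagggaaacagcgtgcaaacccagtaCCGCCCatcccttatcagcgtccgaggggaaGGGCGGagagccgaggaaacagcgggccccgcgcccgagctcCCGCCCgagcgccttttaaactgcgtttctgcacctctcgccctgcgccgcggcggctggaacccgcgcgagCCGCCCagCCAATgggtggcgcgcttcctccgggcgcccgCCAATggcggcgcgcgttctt
Sun1: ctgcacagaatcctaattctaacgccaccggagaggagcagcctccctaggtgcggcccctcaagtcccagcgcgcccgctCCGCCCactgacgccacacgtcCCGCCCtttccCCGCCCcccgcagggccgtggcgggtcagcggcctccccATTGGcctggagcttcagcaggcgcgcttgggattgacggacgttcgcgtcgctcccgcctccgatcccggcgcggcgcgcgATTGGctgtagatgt
Lmnb2: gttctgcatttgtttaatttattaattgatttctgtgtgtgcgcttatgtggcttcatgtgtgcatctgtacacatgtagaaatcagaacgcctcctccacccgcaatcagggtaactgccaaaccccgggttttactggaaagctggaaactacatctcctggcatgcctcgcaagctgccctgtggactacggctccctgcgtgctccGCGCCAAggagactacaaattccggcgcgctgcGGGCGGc

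The Lmna stretch held 1 CpG in 216 bases, while those of Lbr, Tmpo and Sun1 held 31, 32 and 30 CpGs in 250 bases and that of Lmnb2 held 14. The median over 32851 RefSeq promoters of 250 bases was 6 CpGs. A CCAAT box was present in 33.8% of these promoters and a GC box in 32.7%, the CHR element in 16.0% and the E2F site in this form in 1.97%. Lbr, Tmpo and Sun1 each had 2 CCAAT boxes, Lmnb2 had none of them, and Tmpo had 4 GC boxes. In Lmnb2 a GC box ended next to the start and the E2F letters stood once. A match is only a match of letters. RefSeq starts were found for 8 of the 9 members.

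The ranks of the levels were the same in all libraries at the top and bottom of the order and not in its middle. Banf1, the DNA-binding partner of LEM-domain proteins, ranked highest in all 4 libraries, Sun1 second in all 4 and Sun2 lowest in all 4. The mean of log2(signal + 1) was 3.41 for Banf1, 2.97 for Sun1, 2.7 for Tmpo, 2.49 for Lmnb2, 2.27 for Lmnb1, 2.15 for Lemd3, 1.9 for Lbr, 1.72 for Lmna and 1.17 for Sun2. Banf1 exceeded Sun1 by 0.44 ± 0.19 (SD, n = 4 libraries), and Sun1 exceeded Tmpo by 0.27 ± 0.11, each in 4 of 4 libraries. The neighbours Lmnb2 and Lmnb1 (0.21 ± 0.57), Lmnb1 and Lemd3 (0.12 ± 0.35) and Lbr and Lmna (0.18 ± 0.56) differed by less than their spread over libraries. Lmna exceeded Sun2 in 4 of 4 libraries, but by an amount as large as its spread (0.55 ± 0.55). In WT replicate 1 Lmna and Sun2 rested on 3 and 2 fragments, so their order there is not resolved. The median member stood at the 67.5th and 68.7th percentile of all promoters in WT and at the 66.1st and 74.6th in APC, a difference of 2.2 points (two-sided exact permutation p = 1.0, n = 2 and 2). With the transcript start of highest signal taken for every gene, this difference was -3.59 points, and without APC replicate 2 it was -2.04.

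**Figure D1:**
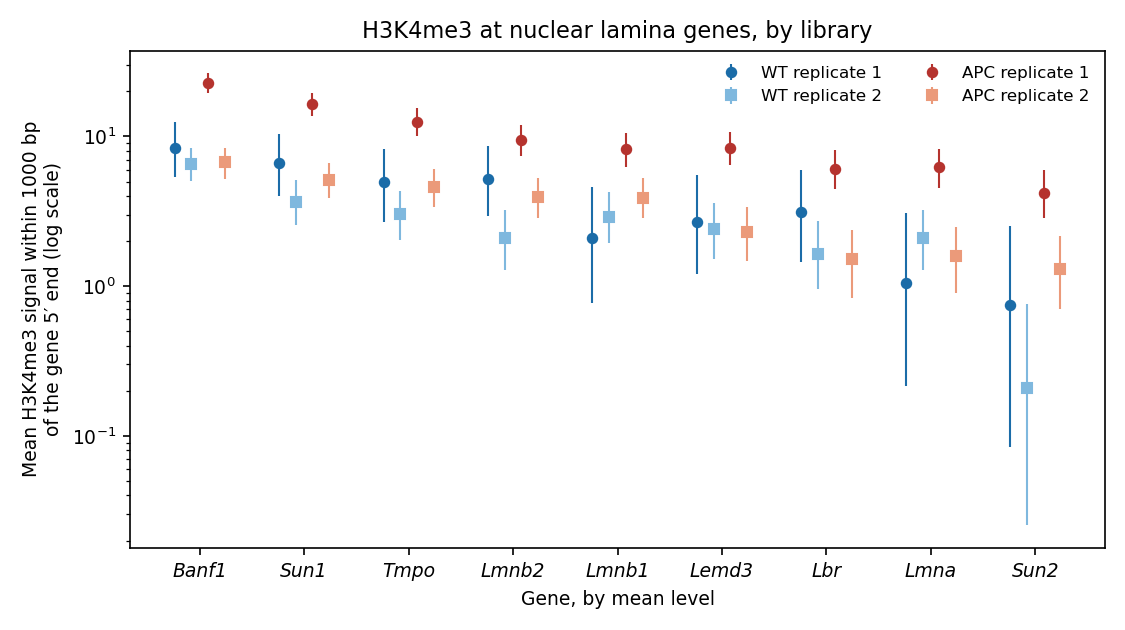
Mean H3K4me3 signal within 1000 bp of the gene 5′ end (log axis) for the 9 genes in order of mean level, 1 point per library, with bars giving the 95% Poisson interval of the fragments behind each value. APC replicate 1 is highest at all 9 genes, from 4.2 at Sun2 to 22.7 at Banf1, while APC replicate 2 lies among or near the WT libraries.

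At the lamins, the A-type gene Lmna (chr3:88480147-88509956, minus strand) had signals of 1.05 and 2.09 in WT and 6.22 and 1.59 in APC. These rest on 3, 20, 46 and 17 fragments, and the value of APC replicate 2 lay between the WT libraries. Lmnb1 (chr18:56707813-56753424, plus strand), a B-type lamin, had 2.09 and 2.91 in WT against 8.29 and 3.89 in APC. Both APC libraries were above both WT libraries there, yet the intervals of APC replicate 2 (2.84 to 5.29) and WT replicate 2 (1.95 to 4.23) overlapped. Lmnb2 (chr10:80901203-80918245, minus strand), the other B-type lamin, had 5.23 and 2.09 in WT and 9.47 and 3.93 in APC, with APC replicate 2 between the WT values. The lamins thus shared a high APC replicate 1 but not the place of APC replicate 2.

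Of the inner membrane proteins, Lbr (chr1:181815335-181843046, minus strand), the lamin B receptor, had 3.14 and 1.65 in WT and 6.07 and 1.51 in APC. Tmpo (chr10:91147571-91181315, minus strand), which encodes the LAP2 proteins, had 4.97 and 3.03 in WT and 12.5 and 4.57 in APC. Lemd3 (chr10:120923413-120979332, minus strand), the LEM-domain protein MAN1, had 2.7 and 2.4 in WT and 8.4 and 2.31 in APC. At Lbr and Lemd3, APC replicate 2 was below both WT libraries.

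Of the genes that bridge the lamina, Sun1 (chr5:139200637-139249840, plus strand) had 6.63 and 3.66 in WT and 16.4 and 5.12 in APC. Sun2 (chr15:79724070-79742536, minus strand) had 0.751 and 0.209 in WT, on 2 fragments each, and 4.2 and 1.31 in APC, on 31 and 14. Both APC libraries were above both WT libraries at Sun2, but in WT replicate 2 the signal was 0.648 times the library's background, so its level there is not separable from background at this depth. The interval of WT replicate 1 (0.0847 to 2.53) also held the value of APC replicate 2. At the Sun2 start of highest signal, 444 bp downstream, the groups overlapped, with 1.74 and 0.311 in WT and 4.89 and 1.67 in APC. The start of Gm16576, a lncRNA on the opposite strand, lies 162 bp from that of Sun2. Banf1 (chr19:5364638-5367168, minus strand) had 8.31 and 6.58 in WT and 22.7 and 6.72 in APC. Its window also holds the start of Eif1ad, on the opposite strand and 427 bp away, so the signal cannot be assigned to either gene.

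The APC mean exceeded the WT mean at all 9 genes, and at none did the difference pass the test. Signals averaged 1.57 ± 0.736 in WT and 3.91 ± 3.28 in APC at Lmna (SD, n = 2 each), 2.5 ± 0.577 and 6.09 ± 3.11 at Lmnb1, and 7.44 ± 1.22 and 14.7 ± 11.3 at Banf1. On the log2(signal + 1) scale, which understates changes of low values, the difference was 0.78 (SE 0.655) for Lmna, 0.95 (SE 0.85) for Lmnb1, 0.71 (SE 0.941) for Lmnb2 and 0.34 (SE 0.713) for Lbr. It was 0.82 for Tmpo, 0.65 for Lemd3, 0.79 for Sun1, 0.69 for Banf1 and 1.25 for Sun2, where it was 2.26 and 0.48 with pseudocounts of 0.1 and 5. Sun2 had a mean signal of 1.62, under the minimum of 2, so 8 members entered the fit. Their adjusted p-values were 0.683 to 0.7 (limma with a trend, Benjamini-Hochberg over 9931 promoters), and 0 of the 8 passed 0.05, as did 0 of the 9931 promoters (0%). An unadjusted p under 0.05 was found for 0 of the 8 and for 131 of all tested promoters.

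The members' difference lay close to that of all tested promoters. Its median was 0.75 over the 8 tested members and 0.85 over all tested promoters. The minimum signal was set on the mean over all 4 libraries, so promoters high in APC replicate 1 reached it more readily. Medians and shares of tested promoters are therefore not independent of the APC signal. Over all 9 members it was 0.78, and over all 21938 promoters, most of them low, it was 0.35. Both APC libraries were above both WT libraries at 2 of the 9 members (Lmnb1 and Sun2), against 26.0% of all promoters, and at 1 of the 8 tested members, against 38.5% of tested promoters. They were below both WT libraries at 0 of the 9, against 7.18% of all and 0.161% of tested promoters. After each library was centred on its median tested promoter, the members' median difference was -0.07 and 7 of the 9 were below 0. The centred difference was 0.1 (SE 0.347) for Lmnb1, -0.51 (SE 0.448) for Lbr and 0.4 for Sun2. Among the 8 tested members, APC was above WT without overlap at 0 after centring (13.1% of tested promoters) and below it at 3, Lbr, Lemd3 and Banf1 (14.3%). None of the 8 passed the threshold after centring (adjusted p 0.999 for each, limma), against 0.121% of tested promoters.

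**Figure D2:**
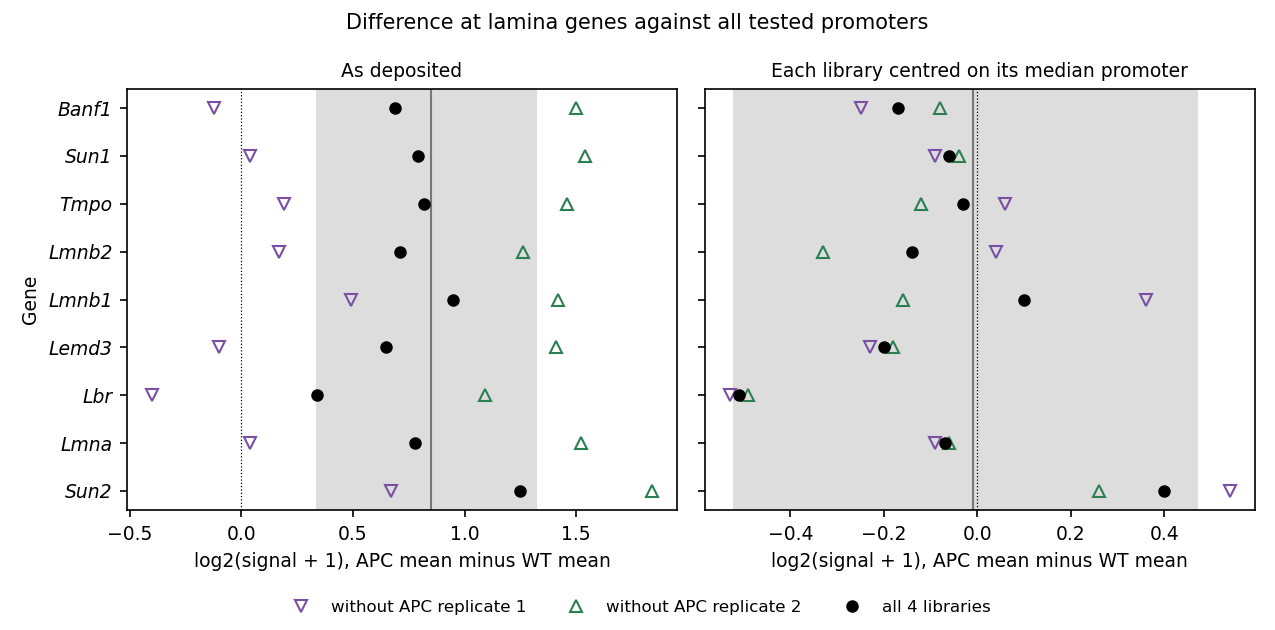
Difference of log2(signal + 1), APC mean minus WT mean, at each gene with all 4 libraries (filled circles) and without 1 APC library (triangles), as deposited on the left and after centring on the right. The grey band spans the 5th to 95th percentile of tested promoters and its line the median. Without APC replicate 1 the values run from -0.4 at Lbr to 0.67 at Sun2, and without APC replicate 2 from 1.09 to 1.84.

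The size of the difference rested on APC replicate 1, the library with the largest share of signal in enriched regions, whose part in it was not tested. Without that library, the members' median was 0.04, and Lbr (-0.4), Lemd3 (-0.1) and Banf1 (-0.12) were lower in APC. Without APC replicate 2, the median was 1.46 and 7 of the 8 tested members passed 0.05, all but Banf1, as did 65.2% of tested promoters. In that fit the lone APC library is assumed to vary like the WT libraries.

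Ratios between members were formed within each library, on the log2(signal + 1) scale, where the pseudocount keeps them from being free of the library's scaling. The log2 ratio of Lmna to Lmnb1 was -0.6 and -0.34 in WT and -0.36 and -0.92 in APC, so Lmna was lower in all 4 libraries, and the groups did not separate (difference -0.17, two-sided exact permutation p = 0.667, n = 2 and 2). The ratio of Lmnb1 to Lmnb2 was -1.01 and 0.34 in WT and -0.17 and -0.01 in APC (difference 0.24, exact p = 1.0). Sun1 exceeded Sun2 by 2.12 and 1.95 in WT and by 1.74 and 1.41 in APC. Those groups did not overlap, with a difference of -0.46 at the smallest p the design allows (exact p = 0.333). The size of that difference was set by the pseudocount and the window, since it was -1.38 with a pseudocount of 0.1, 0.07 with a pseudocount of 5 and -0.02 with a window of 2000 bp. At the start of highest signal the groups overlapped, with 1.48 and 1.84 in WT and 1.6 and 1.22 in APC. The difference was then -0.25 (exact p = 0.667). With no pseudocount, which leaves the ratios free of the scaling, the differences were -1.67 for Sun1 to Sun2, -0.11 for Lmna to Lmnb1 and 0.32 for Lmnb1 to Lmnb2 (exact p = 0.333, 1.0 and 1.0). The first of these rests on 2 Sun2 fragments in each WT library.

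The start site mattered most at Lmna. The GENCODE 5′ end belongs to a protein-coding transcript whose start lies 6604 bp upstream of the RefSeq start, and the signal at that RefSeq start was higher in 4 of 4 libraries, at 2.55 and 2.86 in WT and 13.4 and 5.04 in APC. The excess over the 5′ end was 0.84 ± 0.38 on the log2 scale (SD, n = 4). The enriched region there ran from 6256 to 9355 bp downstream of the 5′ end, a length of 3100 bp, while the region at the 5′ end spanned 900 bp. A further RefSeq start 16644 bp downstream had 2.09 and 2.56 in WT and 7.8 and 2.73 in APC. At the annotated start with the highest signal, 6649 bp downstream, both APC libraries were above both WT libraries (5.22 and 14.1 against 2.65 and 2.89), the difference was 1.36 and its adjusted p 0.682 (limma). The log2 ratio of Lmna to Lmnb1 was then 0.24, -0.01, 0.7 and 0.35 over WT and APC replicates, and its difference changed sign to 0.41 (exact p = 0.333).

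Lbr and Tmpo differed in the same respect. At the RefSeq start of Lbr, 645 bp downstream, the signal was 5.23 and 2.46 in WT and 11.3 and 3.09 in APC, higher than at the 5′ end in 4 of 4 libraries. The 5′ end of Tmpo is that of a processed transcript, and its protein-coding RefSeq start lies 9696 bp downstream, with 2.44 and 3.34 in WT and 6.51 and 2.83 in APC. That is lower than at the 5′ end in 3 of 4 libraries. Over all genes, the start with the highest signal was downstream of the 5′ end for 52.0%, and over 1000 bp downstream for 16.8%, against 5 and 1 of the 9 members.

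**Figure D3:**
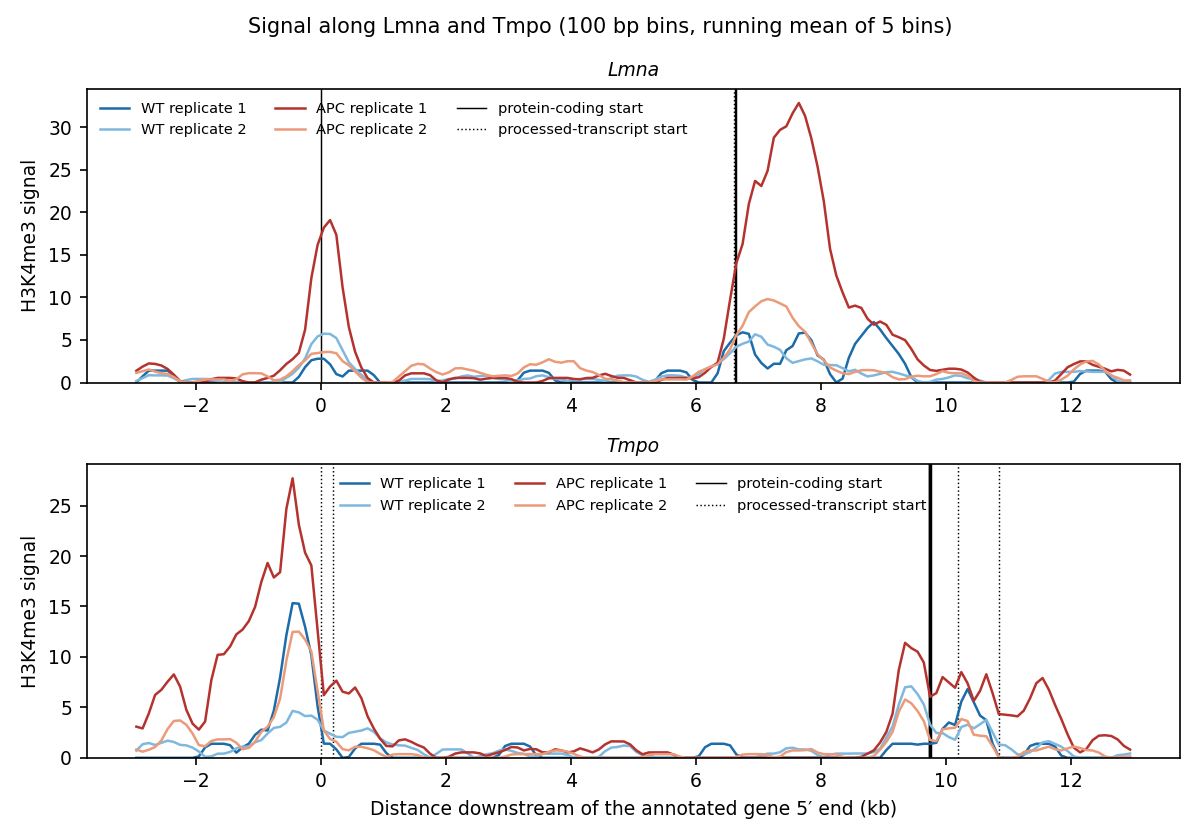
H3K4me3 signal in bins of 100 bp, as a running mean over 5 bins, along Lmna (top) and Tmpo (bottom) by distance from the annotated 5′ end in kb, 1 line per library, with annotated starts as vertical lines. In Lmna the enriched stretch past the start 6604 bp downstream is wider than that at the 5′ end, and in Tmpo it lies mostly upstream of the 5′ end, with a further rise at the protein-coding starts that is lower in 3 of the 4 libraries and higher in WT replicate 2.

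The mark sat on different sides of the annotated start in different members. The share of the signal that lay downstream was 85.9% to 100.0% at Lmnb2, and 11.2% and 41.4% in WT and 23.5% and 13.9% in APC at Tmpo. At Lbr it was 72.2% to 87.0%, and at Sun1 53.4% to 61.6%. The median over the 9 members was 58.9% and 62.0% in WT and 70.8% and 61.6% in APC (difference 5.74 points, exact permutation p = 0.667), and the difference was -2.48 points with a window of 2000 bp and -5.57 at the start of highest signal. An enriched region touched the window of all 9 members, against 58.2% of all promoters. Regions were called on the averaged track, and 8 of the 9 members reached a mean signal of 2, as did 9931 of 21938 promoters. The contrast is therefore not read as a trait of the members. Region length ran from 900 bp at Lmna to 3400 bp at Tmpo, against a median of 1800 bp over promoters with one.

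**Figure D4:**
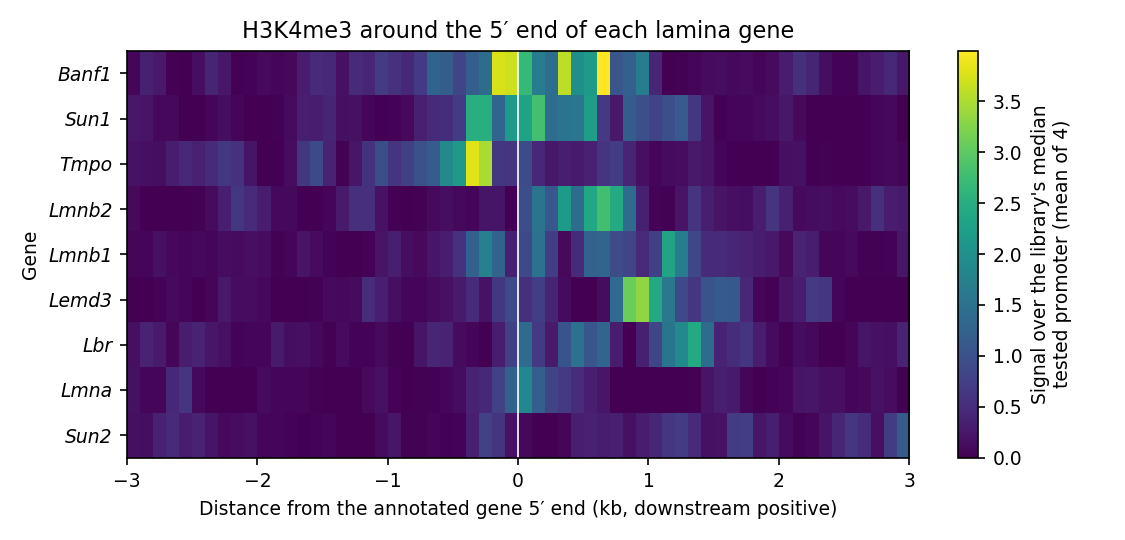
H3K4me3 in bins of 100 bp from 3 kb upstream to 3 kb downstream of each gene's annotated 5′ end, divided by the library's median tested promoter and averaged over the 4 libraries, with genes in order of mean level. The signal of Lmnb2 and Lemd3 lies downstream of the start and that of Tmpo upstream.

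None of the other nuclear envelope genes tested passed the threshold, and neither did any of the 9931 tested promoters (0%). The counts below are therefore not read as a trait of these lists. Of 15 envelope partners, 12 were tested and 0 passed the threshold in either direction. The median difference of the 12 was 0.75, with the largest at Ankle2 (1.14), which acts on Banf1, and the smallest at Tmem201 (0.33). Of the 3 untested partners, Prr14 (-0.75) and Syne1 (-0.36) had a lower mean in APC, and at Prr14, with 0.994 and 1.0 in WT and 0.27 and 0.105 in APC, both APC libraries were below both WT libraries. Those Prr14 values rest on only 2.84 and 9.58 fragments in WT and 2.0 and 1.15 in APC. Both APC libraries were above both WT libraries at 6 of the 15 partners, against 26.0% of all promoters. They were below both at 1, against 7.18%. Of 5 lamin processing genes, all tested, 0 passed, with a median of 0.63 and a range from Fnta (0.25) to Fntb (1.26), the subunits of farnesyltransferase. Zmpste24, the protease that matures prelamin A, had 9.77 and 6.2 in WT and 23.4 and 9.33 in APC. Of 12 nuclear pore genes, 0 passed, with a median of 0.89 and a range from Ndc1 (0.52) to Nup153 and Nup214 (1.16 each). For none of the 3 lists did a tested gene have an unadjusted p under 0.05 (limma), which 131 of the 9931 tested promoters had.

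Among 4 relatives known from the germline, 2 were below the minimum signal. Sun5 had 0.698 and 0.645 in WT and 0.406 and 0.458 in APC, and Lemd1 had 0.697, 0.632, 0.303 and 0.701 in the same order. These values rest on only 2.0, 6.17, 3.01 and 5.0 fragments at Sun5 and 1.99, 6.05, 2.24 and 7.67 at Lemd1. Sun3 (1.74 and 1.83 in WT, 4.6 and 1.55 in APC) and Spag4 (0.698 and 1.54 in WT, 3.38 and 2.39 in APC) reached the minimum. Their mean signals over the 4 libraries were 2.43 and 2.0, and their differences 0.44 and 0.89. At these genes every WT value was under 2, so they passed only through APC libraries. Their higher APC means are therefore not independent of the filter.

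The promoters most like Lmna over the 4 libraries, by Euclidean distance of centred log2 values, were Rxra (0.19), Kif2c (0.2) and Nat8f4 (0.206). Those most like Lmnb1 were Gatb (0.072), Slc40a1 (0.143) and Zfp451 (0.158).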

How the data were processed

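H3K4me3 was measured by CUT&RUN in 2 wild-type and 2 ApcMin/+ libraries, grouped by the genotype in the labels. The other samples of the series were not analysed here. Per the labels and methods, the authors trimmed read pairs with Novocraft and aligned them to mm10 with Bowtie2. Picard and samtools removed duplicates and poorly mapped reads, and only fragments from 150 to 500 bp long were used. The deposited values are signal, namely coverage written by HOMER and scaled by the authors to 10000000 tags, to which count models do not apply. Summed signal divided by the track sum per tag gave the fragments at a promoter. Their 95% exact Poisson intervals cover counting error only. The median tested promoter held 13 fragments in WT replicate 1 and 29.3 to 97.6 in the others.

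Signal was averaged within 1000 bp of the 5′ end of 21938 protein-coding genes. The 9931 with a mean of at least 2 were tested with limma 3.58.1 (R 4.3.3) with a trend on log2(signal + 1), Benjamini-Hochberg adjusted, at 0.05. Enriched regions were 100 bp bins of the averaged track above 5 times its mean, joined over 500 bp and at least 300 bp long. Background was signal outside them and over 5000 bp from any start. Single values were tested by exact permutation over libraries, two-sided. In simulated data for this comparison, with 200 of 9931 promoters changed 4-fold, 91.5% were recovered, with 15 false calls. The simulation held Poisson counting error and a set promoter noise, but no differences in enrichment between libraries. The real libraries did differ in enrichment, so this share is not the power of the test here. With 1 APC library raised at all promoters, 0% were recovered as scaled and 91.5% after centring. The members and lists were chosen with earlier results of these data known. Genes of the related lists were named where they passed the threshold, otherwise those with the largest and smallest difference. Zmpste24, Prr14, Syne1, Sun5, Lemd1 and the single cell type markers were named after their values were seen. Alternatives were other scalings, windows, starts, pseudocounts and filters, a replicate block and leaving out each library. Scripts ran in Python 3.11.15 with scipy 1.17.1 and pysam 0.24.0.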

Additional observations from a re-analysis of the deposited data

How the results depend on the processing

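Depth limits the members most in WT replicate 1, where Lmna rested on 3 fragments, and 2 libraries a group leave wide errors. No member passed the threshold with windows of 500 or 2000 bp, the start of highest signal, pseudocounts of 0.1 or 5, no filter, a filter of 5, background scaling, centring, quantile normalization or the replicate block. Of all promoters, 12 passed after centring, 2 after quantile normalization and 1 with the replicate block. The labels give no meaning to the replicate numbers, and whether they mark a shared batch was not tested beyond 1 value: the deviations of WT replicate 1 and APC replicate 1 from their group means correlated at r = 0.196 over 9931 promoters.

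Leaving out 1 library each, 0 to 6478 promoters, 0 to 7 members and 0 to 17 of the 29 tested genes of the 3 related lists passed, the highest each time without APC replicate 2; after centring, 0 to 30 promoters passed (2 and 18 without WT replicates 1 and 2, 30 without APC replicate 2). Non-overlapping members were 2 to 9 of 9 (higher), beside 36.7% to 58.3% of all promoters, and 0 to 2 (lower), beside 13.8% to 18.6%. After centring they were 1 to 3 (higher), beside 13.2% to 21.8%, and 3 to 6 (lower, 5 without WT replicate 1 or APC replicate 2), beside 28.3% to 69.6%. The 9 of 9, without APC replicate 2, stood beside 98.9% of tested promoters. With all libraries, they were 1 and 3 after centring. After quantile normalization, which left out Sun2, none was higher. The filter of 5 left out Lmnb1 (mean signal 4.29) and Sun2 (1.62), the only higher members as reported. That none was higher with this filter was thus fixed in advance. The members' median ran from 0.04 to 1.46, and after centring from -0.24 to -0.09 (-0.12 without APC replicate 2); with all libraries it was -0.07 centred and -0.09 after quantile normalization. The cause was not tested.

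Single members changed sign after centring at Lmna (-0.07), Lmnb2 (-0.14), Lbr (-0.51), Tmpo (-0.03), Lemd3 (-0.2), Sun1 (-0.06) and Banf1 (-0.17), and after quantile normalization at Lmna (-0.12), Lmnb2 (-0.04), Lbr (-0.43), Tmpo (0.0), Lemd3 (-0.21), Sun1 (-0.06) and Banf1 (-0.22). Leaving out 1 library gave Lmna 0.04 to 1.52, Lmnb1 0.49 to 1.42, Lmnb2 0.17 to 1.26, Lbr -0.4 to 1.09, Tmpo 0.19 to 1.46, Lemd3 -0.1 to 1.41, Sun1 0.04 to 1.54 and Banf1 -0.12 to 1.5. After centring, values below 0 were Lmna -0.59, Lmnb1 -0.29, Lbr -0.41, Lemd3 -0.36 and Banf1 -0.24 without WT replicate 1; Lmnb2 -0.43, Lbr -0.61, Tmpo -0.09, Lemd3 -0.04, Sun1 -0.2 and Banf1 -0.09 without WT replicate 2; Lmna -0.09, Lbr -0.53, Lemd3 -0.23, Sun1 -0.09 and Banf1 -0.25 without APC replicate 1; and Lmna -0.06, Lmnb1 -0.16, Lmnb2 -0.33, Lbr -0.49, Tmpo -0.12, Lemd3 -0.18, Sun1 -0.04 and Banf1 -0.08 without APC replicate 2.

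The difference in the ratio of Lmna to Lmnb1 was 0.15 with a window of 500 bp, 0.41 at the start of highest signal and -0.45 to 0.11 without 1 library. That of Lmnb1 to Lmnb2 was -0.43 to 0.92 without 1 library, and that of Sun1 to Sun2 was -0.63 to -0.3, 0.07 with a pseudocount of 5 and -0.25 at the start of highest signal. The ratios with no pseudocount were added after seeing the data and kept their direction. The percentile difference was -3.59 at the start of highest signal and -2.04 to 6.45 without 1 library. The difference in downstream share was -2.48 with a window of 2000 bp, -5.57 at the start of highest signal and 1.17 to 10.3 without 1 library. At the 5′-most RefSeq start of each gene, an alternative chosen after seeing the data, no member with such a start changed direction. At RefSeq starts further downstream, the difference was -0.06 for Lmnb2 (11833 bp) and -0.01 for Sun1 (14521 bp). Their mean signals there were 0.587 and 0.891, under the minimum of 2.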
